A study of Mus musculus with 8 samples.

Results

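The genes described here are 10 genes of iron and hepcidin regulation, namely Hamp, Hamp2, Tfrc, Tfr2, Slc40a1, Slc11a2, Fth1, Ftl1, Bmp6 and Id1. They were taken by gene symbol from a table of liver read counts with 24940 genes, and all 10 passed the filter on low counts and were tested. Liver mRNA was sequenced from 4 FxrKO and 4 Bcl6LKOFxrKO males of strain C57BL/6. Mice of both groups carried floxed Bcl6 alleles (Bcl6 fl/fl) and were homozygous for a whole-body deletion of FXR, the bile acid receptor encoded by Nr1h4. The Bcl6LKOFxrKO mice also carried Alb-Cre, a recombinase under the albumin promoter, which removes the transcriptional repressor Bcl6 from hepatocytes. The comparison therefore asked which genes change when hepatocyte Bcl6 is lost in mice that already lack Fxr. The age of these 8 mice was not given in the sources used here. Per the study's methods mice were as a rule fed freely or fasted for 4 hours, without saying which held for these livers. Livers with intact Fxr were not analysed here.

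Hepcidin, the product of Hamp, is a peptide hormone of hepatocytes that binds the iron exporter ferroportin (Slc40a1) and causes its breakdown, which limits the release of iron from macrophages, enterocytes and hepatocytes. Its transcription is raised by the BMP-SMAD pathway, in which BMP6 from liver endothelial cells acts on hepatocytes, and by IL-6 through STAT3. Mice carry a second hepcidin gene, Hamp2, whose product is not known to regulate iron in the way the product of Hamp does. Inside cells, iron regulatory proteins bind iron-responsive elements, short hairpins in mRNA that block translation when they lie in the 5′ UTR (ferritin, ferroportin) and protect the mRNA when they lie in the 3′ UTR (transferrin receptor 1, encoded by Tfrc).

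Hamp2, Id1, Tfrc, Bmp6 and Fth1 were higher in Bcl6LKOFxrKO livers, while Hamp itself varied widely between livers of both groups and was not called. Hamp2 rose 10.8-fold and became the main hepcidin transcript. None of the 10 genes was called lower, and Tfr2, Slc11a2, Slc40a1 and Ftl1 did not pass the test. Calls were made below an adjusted p of 0.05 in the quasi-likelihood test of edgeR, with p-values adjusted by Benjamini-Hochberg over all 12340 tested genes. Of the 10 genes 5 were called higher, where 16.2% of all tested genes were, and 0 were called lower, where 13.5% of all tested genes were. In the same 5 genes every Bcl6LKOFxrKO liver lay above every FxrKO liver, a separation seen in 16.1% of all tested genes. The median log2 fold change was 0.53 over the 10 genes and 0.01 over all tested genes.

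The promoters of both hepcidin genes are shown because the paralogues moved differently in the same livers. Each sequence is the 150 bases before the annotated start, 5′ to 3′ on the gene's strand, from RefSeq (GRCm38.p6, the coordinates of mm10). The first run of capitals marks the letters GGCGCC, the core of the BMP-responsive element described in hepcidin promoters, and in Hamp2 the letters aligned to it. The second run marks a match to TTCNNNGAA, the core bound by STAT factors. Both patterns read the same on both strands and do not overlap each other.
Hamp, chr7:30944030-30944179, minus strand: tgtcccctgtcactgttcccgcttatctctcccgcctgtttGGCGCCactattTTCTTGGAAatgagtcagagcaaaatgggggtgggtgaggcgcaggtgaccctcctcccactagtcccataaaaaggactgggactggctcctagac
Hamp2, chr7:30924182-30924331, minus strand: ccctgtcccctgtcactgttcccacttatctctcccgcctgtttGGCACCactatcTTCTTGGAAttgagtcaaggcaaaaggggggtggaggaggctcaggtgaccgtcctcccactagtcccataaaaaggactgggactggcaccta

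Over the 147 aligned bases the 2 promoters were 91.8% identical. The letters GGCGCC began 109 bases before the start of Hamp, and the aligned letters began 106 bases before the start of Hamp2 and carried the substitution G4A, counted from 1 at the first base of GGCGCC in Hamp. The STAT core began 97 bases before the start of Hamp and 94 before that of Hamp2, with no difference between them. GGCGCC occurs in the same 150-base window of 7.01% of 32851 mouse promoters and TTCNNNGAA in 4.09%. These matches describe the letters of the window and not binding of a factor. Promoters of 7 of the 10 genes were in the table, and among the others of these GGCGCC was found only before Tfrc. The transcripts of Hamp and Hamp2 were 94.6% identical over 410 aligned bases, yet they share no identical run of 100 bases, the length of the reads. The genes lie 18187 bases apart on chromosome 7.

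The iron-responsive elements are shown because the genes that carry them split between the 5′ UTR and the 3′ UTR. They were found in GENCODE transcripts (mm10) of 8 of the 10 genes as a bulged C, 5 paired bases and the loop CAGTGN, in 27 bases, with the bulged C and the loop in capitals. The matches in the 5′ UTR were in the ferritin genes and in ferroportin, and those in the 3′ UTR were in Tfrc and Slc11a2. All pair at 5 of 5 positions except that of Slc11a2, which pairs at 4.
Fth1, 5′ UTR, chr19:9982733-9982759, plus strand: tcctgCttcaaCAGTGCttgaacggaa
Ftl1, 5′ UTR, chr7:45459780-45459806, minus strand: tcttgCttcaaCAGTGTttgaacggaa
Slc40a1, 5′ UTR, chr1:45925466-45925492, minus strand: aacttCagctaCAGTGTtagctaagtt
Slc11a2, 3′ UTR, chr15:100395154-100395180, minus strand: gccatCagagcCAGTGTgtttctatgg
Tfrc, 3′ UTR site 1, chr16:32631220-32631246, plus strand: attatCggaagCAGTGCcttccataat
Tfrc, 3′ UTR site 2, chr16:32631599-32631625, plus strand: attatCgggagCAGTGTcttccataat
Tfrc, 3′ UTR site 3, chr16:32631664-32631690, plus strand: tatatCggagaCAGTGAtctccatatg
Tfrc, 3′ UTR site 4, chr16:32631711-32631737, plus strand: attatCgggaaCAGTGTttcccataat
A match with 5 pairs occurs in 1.34% of 21901 protein-coding genes and one with at least 4 pairs in 10.7%. No match was found in Hamp, Hamp2 or Bmp6.

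The livers held between 7586241 and 11839503 counts on genes. Values below are CPM, counts set to a common library size and scaled by TMM, a normalization that allows for a few genes taking much of a library, given for livers 1 to 4 of each group. Alb took 4.04% to 5.16% of the counts in FxrKO livers and 11.9% to 13.2% in Bcl6LKOFxrKO livers. Scaling by total counts alone shifted the median log2 fold change of all genes by -0.16 and brought the share of higher genes among those called from 54.5% to 32.3%. Of the 10 genes, Hamp alone changed direction with it. Bcl6, the targeted gene, was at 21.2 to 65.2 CPM in FxrKO livers and 4.61 to 11.9 in Bcl6LKOFxrKO livers, and FxrKO liver 3 had the 21.2, with the other 3 at 55.6 or more. Nr1h4, the gene of FXR, was still counted, at 59.7, 56.7, 60.7 and 62.6 CPM in FxrKO livers and at 42.0, 39.4, 44.4 and 48.1 CPM in Bcl6LKOFxrKO livers (log2 fold change -0.46, adjusted p = 0.00497 in edgeR). Of 6 hepatocyte markers, all counted, Alb and Asgr1 were called higher and Ttr and Apob lower, Apoa1 and Cps1 were not called, and the median log2 fold change was -0.23. Their sum was 54448 to 66648 CPM in FxrKO and 144294 to 161652 CPM in Bcl6LKOFxrKO livers, of which Alb alone made 44554 and 135488 CPM on average. Markers of 2 further cell types were also higher. Of 10 stellate cell markers 7 were called higher and 0 lower (summed level 210 to 298 CPM in FxrKO and 425 to 542 CPM in Bcl6LKOFxrKO livers), and of 6 tested cholangiocyte markers 4 were called higher and 0 lower (42.2 to 67.3 CPM and 94.2 to 196 CPM over all 8 listed). The shares over all tested genes were 16.2% higher and 13.5% lower. None of these markers was at 0 in all livers, and the part of these cells in the values of the 10 genes was not tested.

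No shift of the main hepcidin gene was detected between the groups. Hamp (NM_032541, on chromosome 7, 30942369 to 30944029) was at 43.5, 147, 37.2 and 92.1 CPM in FxrKO livers and at 71.3, 166, 71.8 and 28.3 CPM in Bcl6LKOFxrKO livers. Both groups spanned low and high livers and overlapped over most of their range. The means were 80.0 ± 51.1 CPM and 84.4 ± 58.2 CPM (SD, n = 4 each), a log2 fold change of 0.08 (SE 0.64, adjusted p = 0.942 in edgeR's quasi-likelihood test). The 95% interval of the fold, 0.367 to 3.02, leaves room for a change of over 2-fold in either direction. The sign of the fold turned in 4 of the 16 alternatives, the lowest being -0.49 without Bcl6LKOFxrKO liver 2, the liver with the highest Hamp. The 16 include the summed counts of Hamp and Hamp2, which are not a fit of Hamp alone.

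Hamp2 (NM_183257, on chromosome 7, 30922372 to 30924181) was at 13.9, 39.4, 104 and 50.6 CPM in FxrKO livers and at 555, 598, 457 and 626 CPM in Bcl6LKOFxrKO livers. The groups were far apart, with the lowest Bcl6LKOFxrKO liver more than 4 times above the highest FxrKO liver. The means were 51.9 ± 37.8 CPM and 559 ± 74.0 CPM (SD, n = 4 each), a log2 fold change of 3.43 (SE 0.55, adjusted p = 0.00311 in edgeR), or 10.8-fold with a 95% interval of 4.39 to 26.4. FxrKO liver 3, which had the lowest Bcl6 of its group, had the highest Hamp2 of its group. Without it the log2 fold change was 4.01 (adjusted p = 0.000210 in edgeR), and with each other liver left out it stayed between 3.11 and 3.51. An antisense noncoding gene, Gm44662, overlaps Hamp2 by 89 bases, and the stated counting options name no strand.

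The make-up of the hepcidin transcripts changed with Hamp2. Hamp2 supplied 24.3%, 21.1%, 73.6% and 35.5% of all hepcidin counts in FxrKO livers and 88.6%, 78.2%, 86.4% and 95.7% in Bcl6LKOFxrKO livers. In every Bcl6LKOFxrKO liver Hamp2 was the larger part, and among FxrKO livers this held in liver 3 only. The means were 38.6% ± 24.1 and 87.2% ± 7.18 (SD, n = 4 each), with p = 0.0286 in a two-sided exact permutation test, the smallest that 70 orderings of 8 livers can give. The summed level of both transcripts was 57.4, 187, 141 and 143 CPM in FxrKO livers and 627, 764, 529 and 654 CPM in Bcl6LKOFxrKO livers. With both genes counted as 1, hepcidin rose by 2.29 on the log2 scale (adjusted p = 0.000441 in edgeR), while Hamp counted alone was not called.

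**Figure D1:**
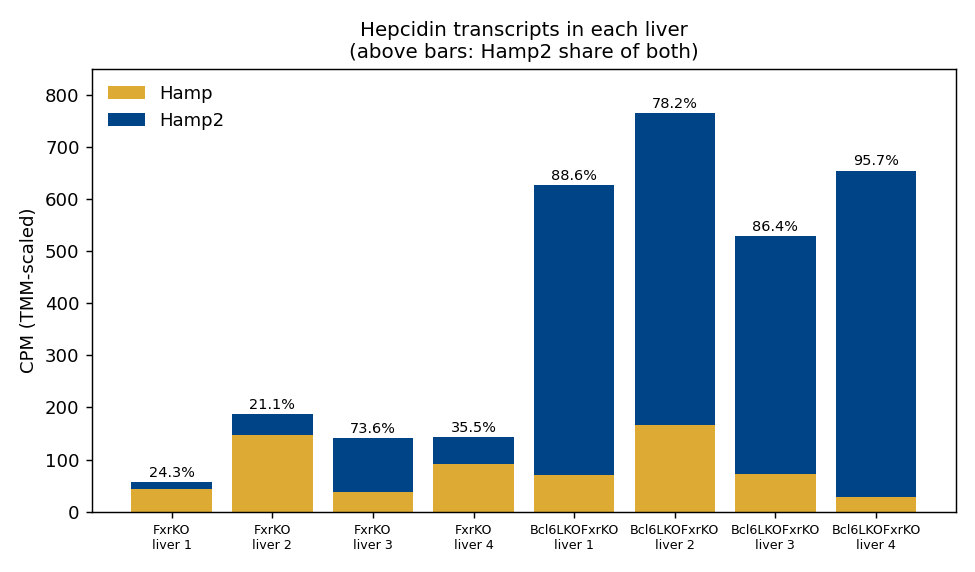
Stacked bars give the CPM (TMM-scaled, y axis) of Hamp and Hamp2 in each of the 8 livers (x axis), and the percentage over each bar is the Hamp2 share of both. The Bcl6LKOFxrKO bars reach 529 to 764 CPM and are mostly Hamp2, and the FxrKO bars reach 57.4 to 187 CPM.

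Genes whose deviations from the genotype means ran closest to those of Hamp were Rcor1 (Pearson r = 0.996), Paxbp1 (0.991), Dcp1a (0.983), Gfra1 (0.971) and Acpp (0.968). These values are over 8 livers on log2(CPM + 1), were the highest of all tested genes, and share the same libraries and depth. Rcor1 ranged from 2.63 to 7.65 CPM over the 8 livers. Among the other iron and hepcidin genes the value was -0.82 for Ftl1, -0.79 for Fth1, 0.59 for Slc11a2, 0.37 for Bmp6 and between -0.04 (Hamp2) and 0.12 (Tfrc) for the rest.

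The mRNAs of a ligand that acts on hepcidin and of a target gene of its pathway were higher. Signalling itself was not measured in the data used here. Bmp6, the ligand, and Id1, a transcriptional regulator and a standard target of BMP-SMAD signalling, both rose. Bmp6 (NM_007556, on chromosome 13, 38345716 to 38500314) was the lowest of the 10 genes, at 1.25, 1.87, 2.58 and 1.89 CPM in FxrKO livers and 3.32, 4.13, 3.31 and 2.81 CPM in Bcl6LKOFxrKO livers. These are 12 to 24 counts against 31 to 34 counts, and the groups did not overlap. Bmp6 rose by 0.83 on the log2 scale (SE 0.26, adjusted p = 0.0315 in edgeR), or 1.77-fold with a 95% interval of 1.20 to 2.63.

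This call for Bmp6 was lost in 8 of 15 alternatives, with the fold still upward. With total counts alone the adjusted p was 0.0650, and DESeq2 gave 0.0503. With 1 liver left out, it ranged from 0.0234 to 0.0821 in edgeR and was over 0.05 for each of FxrKO livers 1, 2 and 4 and Bcl6LKOFxrKO livers 1, 2 and 3. The log2 fold changes were 0.67 to 1.01. Bmp6 overlaps the antisense gene Txndc5 by 224 bases, and Txndc5 was at 211 CPM in FxrKO and 183 CPM in Bcl6LKOFxrKO livers (log2 fold change -0.20, adjusted p = 0.194 in edgeR).

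Endothelial cells are the main known source of Bmp6 in liver. Of 14 endothelial markers 3 were called higher (Eng, Flt4, Stab2) and 0 lower, beside 16.2% and 13.5% of all tested genes. The other 11, among them Pecam1, Cdh5, Lyve1 and Kdr, were not called. The summed level of all 14 was 327 to 435 CPM in FxrKO livers and 419 to 550 CPM in Bcl6LKOFxrKO livers. None of the 14 was at 0, and the 2 groups overlapped. The part of these cells in the Bmp6 rise was not tested, and in whole liver a greater number of such cells and more RNA per cell cannot be told apart.

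Id1 (NM_001355113, on chromosome 2, 152736251 to 152737410) was at 4.16, 4.25, 1.29 and 2.65 CPM in FxrKO livers and at 21.4, 18.8, 13.4 and 26.7 CPM in Bcl6LKOFxrKO livers. Every Bcl6LKOFxrKO liver had more than 3 times the Id1 of any FxrKO liver. Id1 rose by 2.71 on the log2 scale (SE 0.31, adjusted p = 5.58e-05 in edgeR), or 6.54-fold with a 95% interval of 4.1 to 10.4. The call held in all 15 alternatives. FxrKO liver 3 had the lowest Id1, and without it the log2 fold change was 2.45 (adjusted p = 5.45e-05 in edgeR).

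Of 4 further genes that BMP signals are known to act on, none was called. Id3 was at 14.1 to 49.4 CPM in FxrKO and 38.0 to 72.5 CPM in Bcl6LKOFxrKO livers (log2 fold change 0.79, adjusted p = 0.224 in edgeR), and Id2 was at 43.3 to 171 CPM and 31.1 to 116 CPM (-0.77, adjusted p = 0.315). Both overlapped between groups. Smad7, an inhibitor that the pathway induces, was at 5.16 to 8.75 CPM and 5.36 to 6.92 CPM, with a log2 fold change of -0.06 (adjusted p = 0.844 in edgeR) whose sign turned without FxrKO liver 2 and without Bcl6LKOFxrKO liver 3. For Atoh8, a transcription factor of the pathway, the log2 fold change was 0.92 (adjusted p = 0.0968 in edgeR), and it was called in 2 alternatives. These 4 genes were chosen after their values were seen, and Smad6, another target, rose (given below with its list).

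The receptors and the importer split between a rise and no call. Tfrc, transferrin receptor 1, which takes up transferrin-bound iron, rose in the Bcl6LKOFxrKO livers. Tfrc (NM_011638, on chromosome 16, 32608896 to 32632794) was at 19.3, 12.9, 17.9 and 22.8 CPM in FxrKO livers and at 41.4, 35.2, 29.1 and 24.6 CPM in Bcl6LKOFxrKO livers. The groups did not overlap, although the lowest Bcl6LKOFxrKO liver was just above the highest FxrKO liver. Tfrc rose by 0.83 on the log2 scale (SE 0.19, adjusted p = 0.00570 in edgeR), or 1.78-fold with a 95% interval of 1.34 to 2.37, and the call held in all 15 alternatives.

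Erythroid precursors express Tfrc strongly. Of the 12 erythroid markers 11 were in the table and 7 were tested, of which 5 were called higher (Hba-a1, Hba-a2, Hbb-bs, Hbb-bt and Slc4a1) and 1 lower (Alas2). The shares over all tested genes were 16.2% higher and 13.5% lower. Hba-a1 and Hba-a2 are annotated at nearly the same place (chromosome 11, 32283672 to 32284486 and 32283675 to 32284493). Their counts were nearly equal (1535 and 1553 in FxrKO liver 1), so they are not separate markers, though both enter the sum. Slc4a1 was at 26.4, 4.37, 5.55 and 4.81 CPM in Bcl6LKOFxrKO livers, so liver 1 stood out. The summed level of the 11 was 736 to 1086 CPM in FxrKO livers and 971 to 1462 CPM in Bcl6LKOFxrKO livers, and none was at 0 in all livers. Alas2, the erythroid enzyme that starts haem synthesis, was at 195 to 244 CPM in FxrKO livers and 106 to 122 CPM in Bcl6LKOFxrKO livers. The part of these cells in the Tfrc rise was not tested.

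Tfr2, transferrin receptor 2, which senses transferrin-bound iron in hepatocytes, did not pass the test. Tfr2 (NM_001359206, on chromosome 5, 137569840 to 137588081) was at 546, 529, 481 and 556 CPM in FxrKO livers and at 471, 541, 450 and 558 CPM in Bcl6LKOFxrKO livers. The groups overlapped, with means of 528 ± 33.0 and 505 ± 52.6 CPM (SD, n = 4 each). The log2 fold change was -0.06 (SE 0.12, adjusted p = 0.709 in edgeR), and the 95% interval of the fold was 0.804 to 1.14, so a change as large as that of Tfrc lies outside it.

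Slc11a2, the iron importer DMT1 (NM_001146161, on chromosome 15, 100392658 to 100423055), was at 50.8, 42.2, 24.8 and 32.5 CPM in FxrKO livers and at 37.7, 39.7, 27.0 and 20.2 CPM in Bcl6LKOFxrKO livers. Low and high livers occurred in both groups. The log2 fold change was -0.27 (SE 0.25, adjusted p = 0.443 in edgeR), and the interval of the fold was 0.563 to 1.21. Its counts may include reads of the antisense gene Gm5475, which overlaps it by 402 bases.

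Of the exporter and the storage proteins, Fth1 passed the test. Slc40a1, ferroportin (NM_016917, on chromosome 1, 45908070 to 45925594), was at 116, 109, 161 and 164 CPM in FxrKO livers and at 196, 168, 252 and 144 CPM in Bcl6LKOFxrKO livers. Liver 4 of the Bcl6LKOFxrKO group lay within the FxrKO range and the other 3 above it. The log2 fold change was 0.47 (SE 0.18, adjusted p = 0.0734 in edgeR), and it was 0.58 (adjusted p = 0.0398) without that liver and 0.57 (adjusted p = 0.0233) in limma voom with quality weights.

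Fth1, the heavy chain of ferritin (NM_010239, on chromosome 19, 9982646 to 9985111), was at 1671, 1416, 1516 and 1370 CPM in FxrKO livers and at 2346, 1910, 1919 and 2820 CPM in Bcl6LKOFxrKO livers. The groups did not overlap, and liver 4 of the Bcl6LKOFxrKO group was the highest. Fth1 rose by 0.59 on the log2 scale (SE 0.15, adjusted p = 0.00937 in edgeR), or 1.51-fold with a 95% interval of 1.21 to 1.88, and the call held in all 15 alternatives.

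Ftl1, the light chain (NM_010240, on chromosome 7, 45457944 to 45459886), was at 2777, 2137, 2280 and 2125 CPM in FxrKO livers and at 3100, 2576, 2772 and 4411 CPM in Bcl6LKOFxrKO livers. Bcl6LKOFxrKO livers 2 and 3 lay just below FxrKO liver 1, so the groups overlapped. The log2 fold change was 0.46 (SE 0.17, adjusted p = 0.0598 in edgeR), and without Bcl6LKOFxrKO liver 4, the highest, it was 0.27 (adjusted p = 0.141). The adjusted p fell under 0.05 in DESeq2, in limma voom and without either FxrKO liver 1 or Bcl6LKOFxrKO liver 2. Of its 100-base windows 60.4% occur unchanged in other annotated genes such as Ftl1-ps1 and Ftl2-ps, against 0.964% for Fth1 and 0 for the other members searched, so reads kept for having 1 location count Ftl1 from part of its length only.

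The ratio of the 2 ferritin chains was also compared between the groups. Since Ftl1 is counted from part of its length only, the size of the ratio does not give the balance of the chains. The ratio of Fth1 to Ftl1 counts was 0.643 ± 0.0292 in FxrKO and 0.707 ± 0.0532 in Bcl6LKOFxrKO livers (SD, n = 4 each), with p = 0.114 in the exact permutation test. Both chains together took 0.404% ± 0.0465 of all counts in FxrKO and 0.516% ± 0.116 in Bcl6LKOFxrKO livers (p = 0.114 in the exact permutation test). Neither difference passed the test. Macrophages of the liver store and export iron. Of 15 macrophage markers 7 were called higher (C1qa, C1qb, C1qc, Ccr2, Cd68, Cx3cr1 and Lyz2) and 0 lower, beside 16.2% and 13.5% of all tested genes. The other 8 were not called, among them Clec4f, Vsig4, Timd4, Cd5l, Marco and Adgre1, and Timd4 had a log2 fold change of -0.32. The summed level of all 15 was 550 to 758 CPM in FxrKO livers and 787 to 1296 CPM in Bcl6LKOFxrKO livers, and none was at 0. The highest sum was in Bcl6LKOFxrKO liver 4, which also had the most Fth1 and Ftl1, and the part of macrophages in the ferritin values was not tested. Without that liver the log2 fold change of Fth1 was 0.46 (adjusted p = 0.0157 in edgeR).

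**Figure D2:**
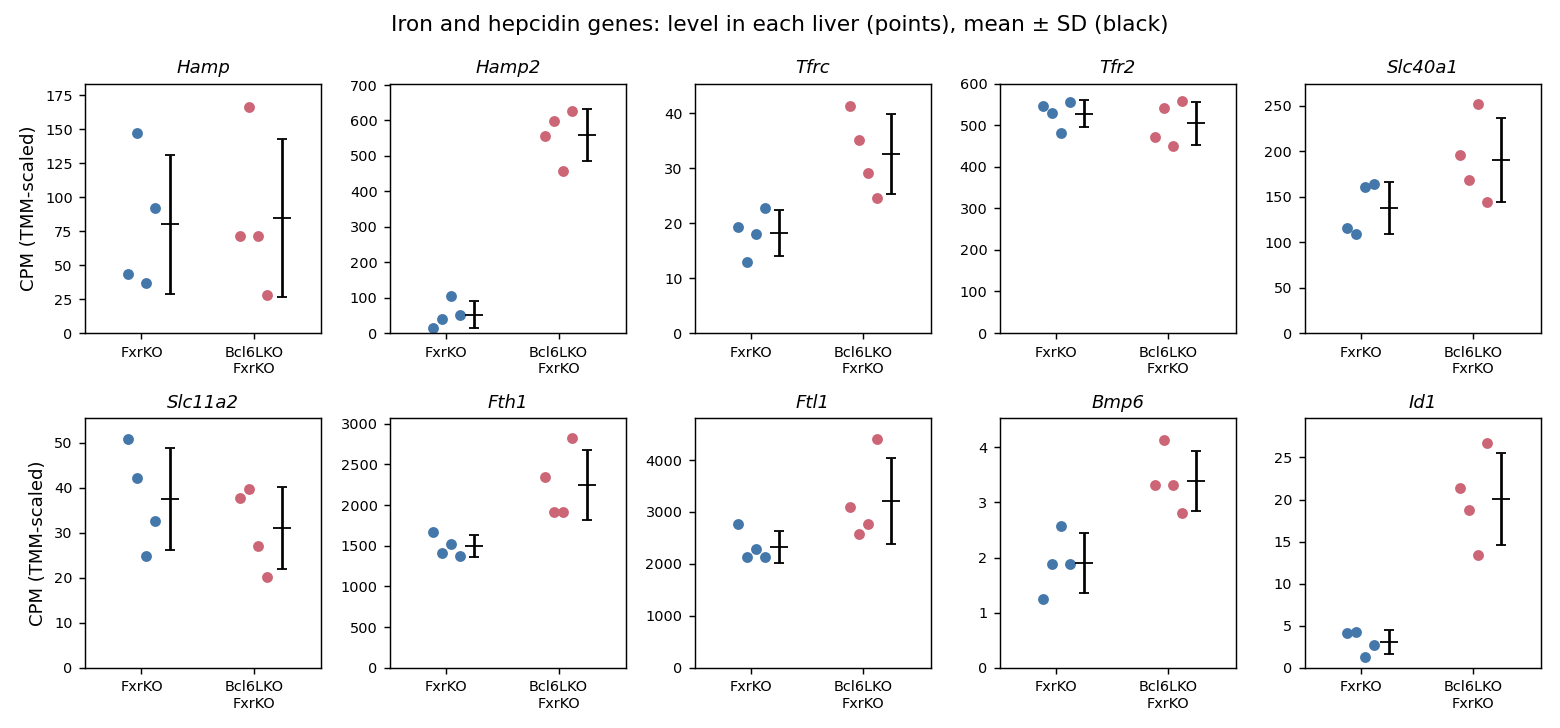
Each panel gives 1 gene, with CPM (TMM-scaled) on the y axis and the 2 genotypes on the x axis, a point for each of 4 livers and the mean ± SD in black. Hamp2, Tfrc, Fth1, Bmp6 and Id1 have every Bcl6LKOFxrKO liver above every FxrKO liver, and Hamp spans the same range in both.

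Per length of transcript the 10 genes covered a wide range, and the order changed at hepcidin. In RPKM (reads scaled to transcript length and library size, from TMM-scaled CPM and the deposited transcript length), Ftl1 was highest in FxrKO livers at 2417 ± 318 and Fth1 next at 1595 ± 143. Hamp followed at 199 ± 127, Tfr2 at 145 ± 9.04 and Hamp2 at 120 ± 87.6 (SD, n = 4 each). These 3 did not differ beyond their spread. The full length of Ftl1 was used although its reads come from part of it only. Its RPKM is therefore not directly comparable with that of the other genes. In Bcl6LKOFxrKO livers Ftl1 was at 3335 ± 857, Fth1 at 2403 ± 461 and Hamp2 at 1294 ± 171, which put Hamp2 next after the ferritins, far above Hamp at 211 ± 145 and Tfr2 at 138 ± 14.4. The other 5 genes were lower in both groups, with Slc40a1 at 40.8 and 56.4 RPKM, Slc11a2 at 8.63 and 7.15, Tfrc at 3.72 and 6.66, Id1 at 3.30 and 21.5 and Bmp6 at 0.636 and 1.14 in FxrKO and Bcl6LKOFxrKO livers. Id1 stood below Slc11a2 in every FxrKO liver and above it in every Bcl6LKOFxrKO liver. Id1 and Tfrc did not differ beyond their spread in FxrKO livers, where Id1 was the higher in livers 1 and 2, and Id1 was above Tfrc in every Bcl6LKOFxrKO liver.

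**Figure D3:**
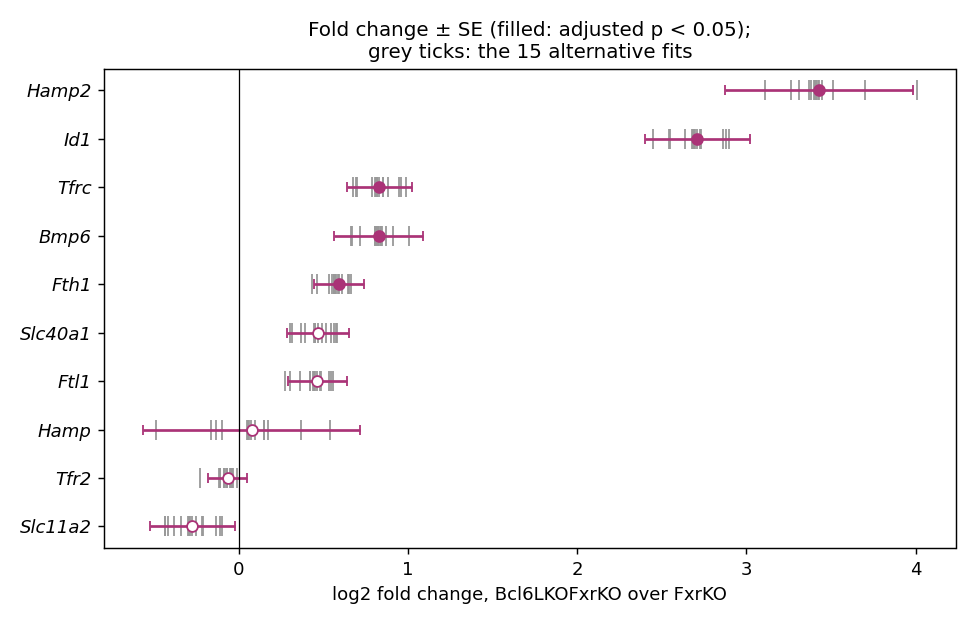
The log2 fold change of each gene (x axis, Bcl6LKOFxrKO over FxrKO) is drawn with its SE, filled where the adjusted p is under 0.05, and grey ticks give the 15 alternative fits. Hamp2 at 3.43 and Id1 at 2.71 stand far to the right, and the ticks of Hamp fall on both sides of 0.

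Over 5 lists of other iron genes no common direction was seen. Of 82 genes listed 73 were tested, 10 were called higher and 14 lower, beside 16.2% and 13.5% of all tested genes, and their median log2 fold change was -0.00. With total counts alone 6 were called higher and 18 lower. Without FxrKO liver 3 the lower calls fell to 8, and without FxrKO liver 2 to 9.

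In the BMP-SMAD list 3 of 23 tested genes were higher and 6 lower, beside 16.2% and 13.5% of all tested genes. Smad6, an inhibitory SMAD that BMP signals induce, was at 3.12 to 5.62 CPM in FxrKO and 8.86 to 12.1 CPM in Bcl6LKOFxrKO livers (log2 fold change 1.25, adjusted p = 0.000470 in edgeR). Hfe2, hemojuvelin, the BMP co-receptor, rose by 0.48 on the log2 scale (adjusted p = 0.0360 in edgeR), and Bmp2, another endothelial ligand of hepcidin, by 0.73 (adjusted p = 0.0485 in edgeR). Hfe2 lost its call in 7 and Bmp2 in 8 of 15 alternatives, with adjusted p up to 0.130 and 0.122. The activin type II receptor Acvr2b fell by 1.38 on the log2 scale (adjusted p = 0.00237 in edgeR), Smad9, a receptor-activated SMAD, by 2.04 (0.00602) and Neo1, neogenin, which binds hemojuvelin, by 0.55 (0.0137). Also called lower were the receptors Acvr2a (-0.53, adjusted p = 0.0285 in edgeR) and Acvr1 (-0.50, 0.0400) and the mediator Smad5 (-0.36, 0.0491). The other 14 tested genes were not called. Among them were the receptors Bmpr1a (-0.41) and Bmpr2 (-0.29), the mediators Smad1 (-0.22) and Smad4 (-0.29) and the ligand Bmp4 (0.27). The activin and BMP receptors and the mediators named here thus all had log2 fold changes below 0, and only some were called. No test of them as a class was run. Tmprss6, the protease that cleaves hemojuvelin, was at 573 CPM in FxrKO and 558 CPM in Bcl6LKOFxrKO livers and was not called (named after its values were seen).

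The IL-6-STAT3 list covers the inflammatory arm of hepcidin control. Of its 11 tested genes 1 was called higher and 0 lower, beside 16.2% and 13.5% of all tested genes. Tyk2, a kinase of cytokine receptors, rose by 0.37 on the log2 scale (adjusted p = 0.0174 in edgeR). Its call was lost with total counts alone (0.21, adjusted p = 0.156) and without FxrKO liver 3 (adjusted p = 0.0606) or 4 (adjusted p = 0.0520). Il6 itself had 0 counts in all 8 livers, where 3 counts, the limit a count of 0 allows, are 0.253 to 0.395 CPM. Bcl6LKOFxrKO liver 2 stood apart in this list, with a summed level of 11997 CPM against 4393 to 5132 in the other 3 livers of its group, and it also had the highest Hamp. FxrKO livers ranged from 5140 to 13877 CPM, so this liver lay within their range and the other 3 below it. Without that liver the log2 fold changes were -0.49 for Hamp (adjusted p = 0.583 in edgeR) and 3.38 for Hamp2 (adjusted p = 0.00883).

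Among genes of iron transport and storage 3 of 16 tested were higher and 3 lower, beside 16.2% and 13.5% of all tested genes. The median of the 16 log2 fold changes was 0.02. Cp, ceruloplasmin, the plasma ferroxidase, was at 914 to 1466 CPM in FxrKO and 4588 to 6586 CPM in Bcl6LKOFxrKO livers (log2 fold change 2.14, adjusted p = 1.57e-06 in edgeR). Trf, transferrin, was at 16190 to 21573 CPM and 38228 to 49118 CPM (1.26, adjusted p = 2.56e-05), and Slc22a17, a receptor of lipocalin 2, rose by 1.19 (adjusted p = 0.00728). Scara5, a ferritin receptor, was at 13.1 to 68.5 CPM in FxrKO livers, was at 0 in 3 Bcl6LKOFxrKO livers and was at 4.13 CPM in liver 2 of that group (fitted log2 fold change -5.47, adjusted p = 0.0108 in edgeR, and -11.62 without that liver). Steap3, the ferrireductase of transferrin uptake, fell by 0.55 on the log2 scale and Slc25a37, mitoferrin 1, by 0.46 (adjusted p = 0.0196 and 0.0228 in edgeR). Both calls were lost without FxrKO liver 3 (adjusted p = 0.0639 and 0.0661), that of Steap3 also without FxrKO liver 2 (0.0596) and that of Slc25a37 without FxrKO liver 4 (0.0701). Ftmt, mitochondrial ferritin, had 0 counts in every liver.

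Both iron regulatory proteins that bind the hairpins shown above fell. Ireb2 was at 52.7, 56.1, 60.9 and 57.6 CPM in FxrKO livers and at 28.7, 26.7, 39.6 and 14.3 CPM in Bcl6LKOFxrKO livers (log2 fold change -1.06, adjusted p = 0.00592 in edgeR). Aco1 was at 246, 262, 299 and 264 CPM in FxrKO livers and at 215, 204, 217 and 168 CPM in Bcl6LKOFxrKO livers (-0.41, adjusted p = 0.0193 in edgeR). In both, every Bcl6LKOFxrKO liver lay below every FxrKO liver, a separation seen in 15.2% of all tested genes. Of the 3 tested genes of this list 0 were called higher and 2 lower, beside 16.2% and 13.5% of all tested genes. Fbxl5, the remaining gene of the list, was not called (log2 fold change 0.19, adjusted p = 0.265 in edgeR). The call of Aco1 was lost without FxrKO liver 3 (adjusted p = 0.0627 in edgeR), and that of Ireb2 held in all 15 alternatives. The lowest Ireb2 and Aco1 were in Bcl6LKOFxrKO liver 4. That liver was at an extreme of its group in all 10 iron and hepcidin genes. It had the most Fth1, Ftl1, Hamp2, Id1 and Tfr2, and the least Tfrc, Slc11a2, Slc40a1, Hamp and Bmp6. Hepatocyte markers were at an extreme in it too. Among the 4 Bcl6LKOFxrKO livers it had the least Apob (2003 CPM against 2661 to 3358), Cps1 and Alb. It had the most Apoa1 (9070 CPM against 5598 to 6259), Ttr and Asgr1. The low markers had transcripts of 2044 to 13878 bases and the high ones 982 to 1249. The part of transcript length in the values of this liver was not tested. All these are mRNA levels, and the binding of the iron regulatory proteins to mRNA was not measured in the data used here.

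In haem metabolism 3 of 20 tested genes were higher and 3 lower, beside 16.2% and 13.5% of all tested genes. Flvcr2, a membrane transporter, rose by 1.07 on the log2 scale (adjusted p = 0.00281 in edgeR), Hpx, hemopexin, which carries haem in plasma, by 0.84 (0.0128) and Slc48a1, a haem transporter, by 0.50 (0.0162). Cpox, an enzyme late in haem synthesis, was at 119 to 142 CPM in FxrKO and 28.0 to 35.4 CPM in Bcl6LKOFxrKO livers (log2 fold change -2.09, adjusted p = 5.17e-08 in edgeR), the smallest p of the 5 lists. Fech, ferrochelatase, which inserts iron into haem, fell by 0.70 (adjusted p = 0.000765 in edgeR) and Hmox2, the constitutive haem oxygenase, by 0.35 (adjusted p = 0.0427). Hmox2 lost its call in 7 of 15 alternatives, with adjusted p up to 0.107, among them leaving out FxrKO liver 1, 2 or 4 or Bcl6LKOFxrKO liver 1, 2 or 3. Slc48a1 lost its call in 4, with adjusted p up to 0.0810, namely with total counts alone and without FxrKO liver 2 or 3 or Bcl6LKOFxrKO liver 1. Hmox1, the inducible haem oxygenase, was at 27.1 to 75.6 CPM and 68.2 to 137 CPM (log2 fold change 1.03, adjusted p = 0.0704 in edgeR), and it was named after its values were seen.

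**Figure D4:**
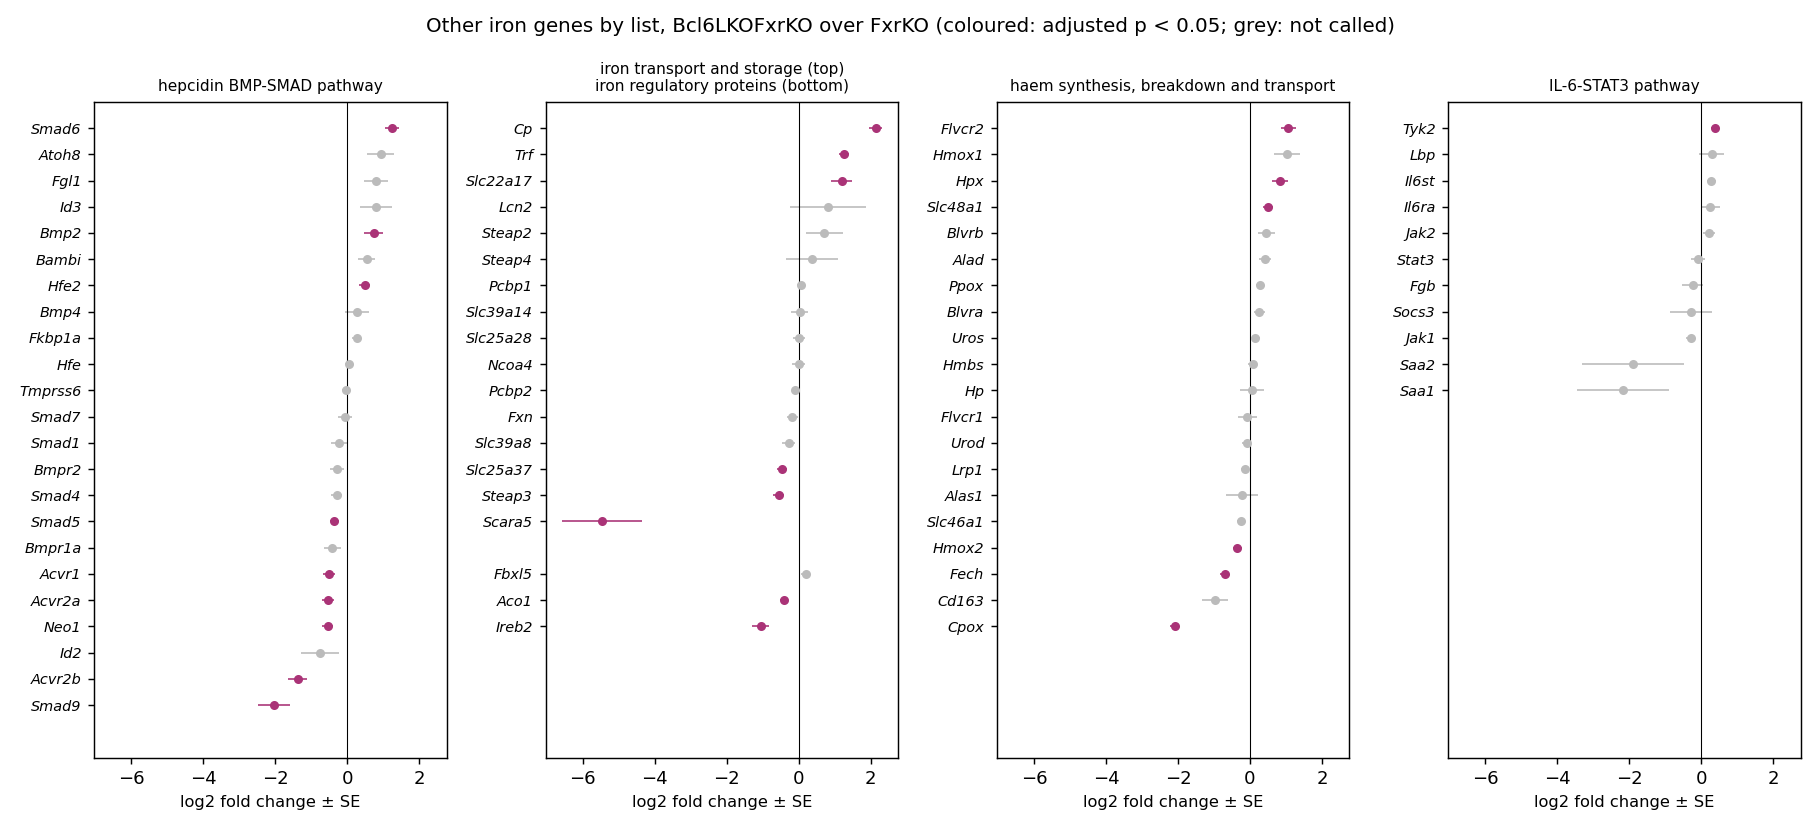
Each row is a tested gene of the 5 other iron lists, placed by its log2 fold change ± SE (x axis, Bcl6LKOFxrKO over FxrKO), coloured where the adjusted p is under 0.05 and grey otherwise. Cp at 2.14 lies farthest to the right and Scara5 at -5.47 farthest to the left, and called genes lie on both sides of 0 in all lists but the IL-6-STAT3 list and the iron regulatory proteins.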

How the data were processed

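Poly(A) RNA of 8 livers was sequenced with a stranded kit. The authors aligned the reads to mm10 with STAR 2.5.2, dropping any that mapped to more than 1 place or had over 4 mismatches. The values they deposited are raw exon read counts, made with HOMER 4.10 for 1 transcript per gene. The stated counting options name no strand, so antisense and overlapping genes are uncertain. Groups came from the sample labels, and each library has its own liver number. The deposited counts were fitted with edgeR 4.0.16 in R 4.3.3 (filterByExpr, TMM, robust quasi-likelihood fit, Benjamini-Hochberg adjustment over 12340 genes), and no covariate was used. CPM and RPKM were computed from these counts and the table's transcript lengths. Levels at low counts are imprecise at this depth, and floors cover counting error only. Alternatives were DESeq2 1.42.0, limma 3.58.1 voom with quality weights, RLE factors, total counts, the 50 most counted genes left out, the filter omitted or replaced by a minimum of 10 counts per liver, an added fold threshold, summed hepcidin counts and each liver left out. Exact permutation tests were two-sided. The fit was also tested on simulated data. Pairs of livers of 1 group differed beyond sampling noise, with a chi-square per degree of freedom of 10.8 to 50.0.

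The 10 genes, the 5 iron lists and the 6 marker lists were chosen with earlier results of these data known. Named were all 10 genes, Bcl6, up to 3 called genes of each list in each direction by adjusted p, list members at 0, cell markers, and the 5 genes nearest to Hamp. Further list members are given where they complete a list. Promoters were read from RefSeq (GRCm38.p6) and hairpins from GENCODE transcripts of the same build.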

Additional observations from a re-analysis of the deposited data

Results flagged for a closer look

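Single livers that lay far from the other 3 of their group were sought with Dixon's ratio, the distance of the extreme liver from its neighbour divided by the range of all 4, at its 95% critical value. Below, gap means this ratio. Of 120 comparisons 11 passed, and chance flags about 1 in 20 groups. The 11 cannot be read against that rate. The comparisons are not independent, since Saa1, Saa2 and Fgb are also part of the IL-6-STAT3 sum, and some genes were named after their values were seen. None of the 10 iron and hepcidin genes was among them. Bcl6LKOFxrKO liver 2 gave 8 of the 11. It was high in genes of the acute phase, with a gap of 0.842 for Saa1 (1053 CPM against 63.5 to 220 in the other 3 livers), 0.839 for Saa2 (783 against 35.9 to 156), 0.900 for Fgb (9237 against 3667 to 4225), 0.912 for Lcn2 (812 against 127 to 188) and 0.889 for Steap4 (846 against 103 to 186). The summed IL-6-STAT3 list gave 0.903 in the same liver. These ratios compare it with its own group only. FxrKO livers reached 4049 CPM for Saa1 and 2537 CPM for Saa2, above this liver, and 7116 CPM for Fgb, 409 CPM for Lcn2 and 361 CPM for Steap4, below it. It was also the liver in which Acvr2b was high, at 8.49 CPM against 4.09 to 4.53 (gap 0.899), and the only one of its group with Scara5, at 4.13 CPM against 0 in the others (gap 1). Hamp was highest in that liver too, at 166 CPM, with a gap below the limit. In Bcl6LKOFxrKO liver 4, Hmox2 was at 50.8 CPM against 38.2 to 39.4 (gap 0.908), and the summed macrophage markers were at 1296 CPM against 787 to 872 (gap 0.833). In Bcl6LKOFxrKO liver 1, Slc22a17 was at 2.01 CPM against 3.52 to 3.72 (gap 0.881). Saa1, Saa2, Fgb, Lcn2 and Steap4 were named after their values were seen.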

How the results depend on the processing

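Over the alternatives, the 10 iron and hepcidin genes kept their direction and their side of the threshold in 133 fits, lost the call in 8, gained it in 7 and turned direction in 4. The summed hepcidin counts stand in these tallies for both Hamp, as a gain, and Hamp2, and are not a fit of either gene alone. Hamp turned to -0.10 with total counts alone, and with each liver left out it ranged from -0.49 to 0.54, turning without FxrKO liver 1 (-0.13), FxrKO liver 3 (-0.17) or Bcl6LKOFxrKO liver 2 (-0.49). Summed with Hamp2 it was 2.29. Slc40a1 was called in limma voom (0.57), and leaving out livers gave 0.31 to 0.58. Ftl1 was called in DESeq2 (0.45) and limma voom (0.36), and leaving out livers gave 0.27 to 0.56. Bmp6 was not called in DESeq2 (0.81) or with total counts alone (0.67), and leaving out livers gave 0.67 to 1.01. The 5 higher members became 7 in limma voom, 4 with total counts alone and 4 to 6 with a liver left out. With total counts alone, 2949 genes were called lower in place of 1665, and 6 other iron genes were called higher in place of 10. Leaving out livers gave 8 to 13 lower calls among the other iron genes. The cause of these changes was not tested. The 32 other iron genes named by rule or after their values were seen kept direction and side of the threshold in 434 fits. They lost the call in 34, gained it in 5 and turned direction in 4. Of them, 3 turned with a liver left out. Smad7 ranged from -0.16 to 0.11 and turned without FxrKO liver 2 or Bcl6LKOFxrKO liver 3, Lcn2 ranged from -0.25 to 1.57 and Steap4 from -0.75 to 0.66, both turning without Bcl6LKOFxrKO liver 2. No paired analysis was possible because the labels give the 2 genotypes no shared replicate number. Serial numbers in the library titles are in part adjacent across genotypes, but no source used here says that they mark a litter or batch, and no fit blocked by them was run. The test for members below the expression filter was not run, since all 10 passed. Depth limits Bmp6 most, at 12 to 34 counts per liver.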
